A study of Mus musculus with 19 samples.

Results

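The transcription factors that pattern the developing cerebral cortex were followed in mouse cortex lacking the nucleosome remodeler *Ino80*. The 8 genes were *Emx1*, *Emx2*, *Lhx2*, *Nr2f1*, *Nr2f2*, *Sp8*, *Dmrta2* and *Dmrt3*, chosen by name from the 51912 genes counted, and all 8 were found. Unique molecular identifier RNA-seq by Click-seq, which joins an identifier to each cDNA, was done on dissected E13.5 cortex, 1 library per embryo, on a mixed C57BL/6 and 129 background. The 7 control embryos (ctrl) are labelled only as controls, and their *Cre* and floxed alleles are not given in the labels. The 5 single mutants (cKO-E) carried 1 *Emx1*-Cre allele (Cre/+) and were fl/fl for floxed *Ino80*. The 7 double mutants (dKO-E) had the same alleles and were also fl/fl for floxed *Trp53*, the p53 gene. The ctrl embryos came from 4 litters, the cKO-E embryos from 5 and the dKO-E embryos from 2. Females and males numbered 4 and 3 in ctrl, 4 and 1 in cKO-E, and 2 and 5 in dKO-E.

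The Cre of both mutants is a knock-in at *Emx1* itself, active in progenitors of the excitatory lineage of the cortex. Interneurons that migrate in from the ventral telencephalon, microglia and vessels keep intact alleles. Counts per gene do not separate the *Emx1* allele that carries Cre from the other one.

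Cortical areas are laid out by transcription factors expressed in gradients across the progenitor sheet, which respond to signals from its edges. The rostral source secretes FGFs, the medial source, or cortical hem, secretes WNTs and BMPs, and the antihem lies at the lateral border. EMX2 is high caudally and medially and favours caudal areas. SP8 is high rostrally and acts with FGF8, whereas COUP-TFI (*Nr2f1*) is high caudally and laterally, and COUP-TFII (*Nr2f2*) is expressed caudally and also in migrating interneurons. LHX2 is a selector that gives progenitors cortical identity and limits the hem. DMRTA2 (also DMRT5) and DMRT3 act medially and caudally, next to the hem.

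Each library held between 820915 and 8095810 counts on genes (median 2952788), so that 3 counts amounted to between 0.371 and 3.65 CPM, the counts of a gene relative to all counts of its library. The shallowest libraries were cKO-E D, dKO-E G and dKO-E E. Levels are CPM scaled by trimmed mean of M values (TMM) factors, and fold changes and adjusted p values are from edgeR's quasi-likelihood test with Benjamini-Hochberg adjustment over all genes tested. The false discovery rate (FDR) at which a gene was called was 0.001 for comparisons with ctrl and 0.05 between the mutants. *Ino80* itself, summed over the gene, was at 121 ± 7.23 CPM (SD, n = 7) in the controls, 166 ± 17.7 (n = 5) in the single mutants and 186 ± 14.9 (n = 7) in the double mutants. This total does not show the deletion, because it includes reads from the parts of the gene outside the deleted exons. *Trp53* was 43.8 ± 5.60, 39.2 ± 4.79 and 34.5 ± 4.78 CPM, with no called difference, and is subject to the same limit. Progenitor and neuronal markers of the labelled cortex were present, with summed CPM of 1106 to 1480.0 for 10 apical progenitor genes over all libraries, but *Sox2* and *Tubb3* were listed at 0 in every library.

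How reads were assigned to genes decides what the values of the patterning factors contain, and it can be read from genes that lie inside others. Of 194 protein-coding genes that lie inside another gene on the same strand without sharing an exon, 97.4% were listed at 0 in every library, against 29.5% of 488 genes inside a gene on the opposite strand and 24.2% of 14013 genes that overlap no other gene. *Sox2* and *Tubb3* were also at 0 in every library, but whether they are of the first kind is not shown here. None of the 8 patterning factors has exon bases inside another gene of its own strand. Since genes inside an opposite-strand gene kept their counts, the counting separated the strands, and since introns of the surrounding gene were enough to remove a same-strand gene, introns were counted as part of a gene. The RNA was depleted of ribosomal RNA and not selected for poly(A), so the values include unspliced transcripts.

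On GRCm38 (GENCODE M21), *Lhx2* (ENSMUSG00000000247.11) lies on chromosome 2 at 38339281 to 38369733, *Dmrta2* (ENSMUSG00000047143.3) on chromosome 4 at 109978053 to 109983687 and *Emx1* (ENSMUSG00000033726.8) on chromosome 6 at 85187438 to 85204462, all on the plus strand. *Nr2f2* (ENSMUSG00000030551.14) lies on chromosome 7 at 70351944 to 70366735 and *Nr2f1* (ENSMUSG00000069171.13) on chromosome 13 at 78188973 to 78199757, both on the minus strand. *Sp8* (ENSMUSG00000048562.7) lies on chromosome 12 at 118846329 to 118852576, and chromosome 19 holds *Dmrt3* (ENSMUSG00000042372.4) at 25610301 to 25623921 and *Emx2* (ENSMUSG00000043969.4) at 59458372 to 59465357, again on the plus strand.

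In RefSeq promoter windows (GRCm38.p6, 250 bases before and 50 after a start, the window nearest the GENCODE start for each gene), GC content was 63.7% to 74.7% for *Emx1*, *Emx2*, *Lhx2*, *Nr2f1*, *Dmrta2* and *Dmrt3*, against a median of 52.7% over 32851 windows. The windows of *Sp8* and *Nr2f2* had 43.0% and 49.7%. *Sp8* has 3 windows and *Lhx2* and *Nr2f1* have 2 each, and 1 was used per gene. Some windows overlap exons of a noncoding transcript on the opposite strand. This holds for all 300 bases of the *Nr2f2* window, 196 of the *Emx2* window and 39 of the *Dmrta2* window. The letters AANATGGC, the core bound by YY1, a DNA-binding protein that works with the INO80 complex, were searched on both strands. They occurred in 0 of the 8 windows and in 6.05% of all windows. The homeodomain letters TAATTA, which read the same on both strands, occurred once in the *Emx2* window and in 5.29% of all windows. The sequence upstream of the start is shown for *Lhx2*, the gene called in cKO-E, and for *Dmrta2*, a progenitor gene called in no comparison, each on the plus strand (chr2:38339031-38339280 and chr4:109977775-109978024). Capitals mark CpG dinucleotides, which number 25 in *Lhx2* and 19 in *Dmrta2*:
Lhx2: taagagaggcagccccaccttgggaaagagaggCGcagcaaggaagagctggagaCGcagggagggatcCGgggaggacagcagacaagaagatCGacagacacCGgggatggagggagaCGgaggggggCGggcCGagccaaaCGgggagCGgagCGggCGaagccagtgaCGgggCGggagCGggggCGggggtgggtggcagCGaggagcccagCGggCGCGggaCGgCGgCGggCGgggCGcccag
Dmrta2: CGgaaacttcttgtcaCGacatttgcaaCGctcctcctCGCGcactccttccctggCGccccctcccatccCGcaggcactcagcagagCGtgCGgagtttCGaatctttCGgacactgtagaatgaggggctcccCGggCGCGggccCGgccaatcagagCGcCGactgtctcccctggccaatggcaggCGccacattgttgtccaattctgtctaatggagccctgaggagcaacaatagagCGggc

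In ctrl, the levels per kilobase of exon were highest for *Lhx2* (67.4 CPM per kb) and *Emx1* (49.9), followed by *Nr2f1* (27.4), *Emx2* (16.7), *Dmrta2* (9.40), *Dmrt3* (6.00), *Nr2f2* (3.21) and *Sp8* (2.20). *Lhx2* and *Emx1* did not overlap each other over the 7 embryos, and neither did *Emx2* and *Dmrta2*, whereas *Nr2f1* overlapped *Emx2*, *Dmrta2* overlapped *Dmrt3*, and *Dmrt3*, *Nr2f2* and *Sp8* overlapped in that order. Because introns were counted, the order depends on the length used. Per kilobase of the whole gene, *Nr2f1* came first (13.0 CPM per kb), then *Lhx2* (9.72), *Emx2* (7.16), *Emx1* (6.40), *Dmrta2* (4.88), *Nr2f2* (1.87), *Sp8* (1.60) and *Dmrt3* (1.08).

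**Figure D1:**
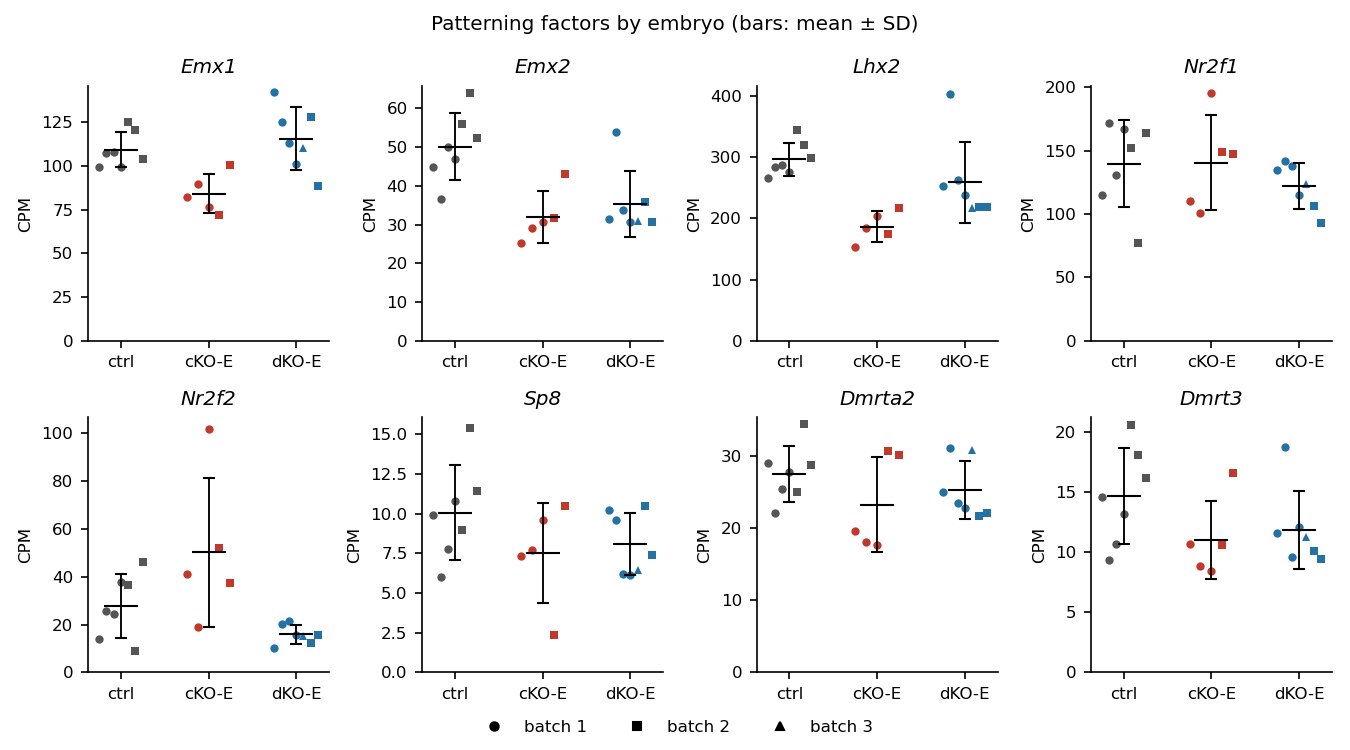
CPM (y axis, linear from 0) of each of the 8 patterning factors in every embryo by genotype, with the batch as the marker shape and the mean ± SD as bars. The 5 cKO-E embryos lie below every ctrl embryo for *Lhx2*, dKO-E B stands above the other dKO-E embryos for *Lhx2*, *Emx2* and *Dmrt3*, and *Nr2f2* reaches 102 CPM in cKO-E C.

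The first comparison asks what deletion of *Ino80* alone did. In cKO-E, *Lhx2* fell by 36.5%, and *Emx2* and *Emx1* were lower without reaching the threshold of 0.001. *Nr2f1* was level, *Nr2f2* was higher on average but scattered widely, and *Sp8*, *Dmrta2* and *Dmrt3* had values slightly below ctrl that did not pass. The test called 1 of the 8 genes lower and 0 higher, where 2.32% of the 11660 genes tested were called lower and 1.06% higher (270 and 124 genes, or 198 and 160 when scaled by total counts). At an FDR of 0.05 the count was 3 lower and 0 higher, against 9.88% and 7.31% of all genes. The median log2 fold change of the 8 genes was -0.31 against 0.02 over all genes, with 7 of 8 below 0, among them *Nr2f1* at 0.00 after rounding. In bulk tissue, fewer cells of a type and less RNA per cell cannot be told apart.

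*Lhx2*, the LIM homeodomain selector of cortical identity, ranged from 265 to 343 CPM in ctrl with a median of 286. In cKO-E embryos A to E it was 153, 184, 204, 175 and 216 CPM. All 5 cKO-E embryos lay below all 7 ctrl embryos. The groups were fully separated, in either direction, for 8.17% of all genes tested and for 1 of the 8 factors. By edgeR the log2 fold change was -0.66 (SE 0.09, FDR-adjusted p = 7.51e-05 by edgeR's quasi-likelihood test). It was -0.63 in batch 1 alone (adjusted p = 0.000186) and -0.68 in batch 2 alone (adjusted p = 0.00241, past the threshold no longer), and -0.59 with litter as a block (adjusted p = 0.000409). Leaving out any 1 embryo gave -0.72 to -0.59.

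*Emx2*, the homeodomain factor that favours caudal and medial fates, ranged from 36.6 to 63.8 CPM in ctrl with a median of 49.9. In cKO-E embryos A to E it was 25.3, 29.0, 30.6, 31.8 and 43.0 CPM. The first 4 of these embryos lay below all ctrl embryos, and cKO-E E overlapped them. A log2 fold change of -0.62 (SE 0.15) resulted, and the adjusted p of 0.00862 missed the threshold of 0.001. The call depended on the model, since batch as a covariate gave -0.60 with an adjusted p of 0.000264 and edgeR's likelihood-ratio test one of 0.000953.

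*Emx1*, the related homeodomain gene that carries Cre in the mutants, ranged from 99.3 to 125 CPM in ctrl with a median of 107. In cKO-E embryos A to E it was 81.9, 89.7, 76.6, 72.0 and 100.3 CPM. Embryos A to D lay below all ctrl embryos and E fell inside their range. The log2 fold change of -0.34 (SE 0.09) had an adjusted p of 0.0103, and -0.32 and -0.37 were obtained in batches 1 and 2. Whether the control embryos carried Cre is not given, so a difference of allele from ctrl and an effect of *Ino80* cannot be told apart here. The 2 mutants carry the same *Emx1* genotype.

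The COUP-TF nuclear receptors mark caudal and lateral cortex, and neither was called. *Nr2f1* was 77.3 to 172 CPM in ctrl (median 152) and 110.2, 101, 195, 149 and 147 CPM in cKO-E A to E. Embryo C lay above all ctrl embryos and the other 4 within their range. Its log2 fold change was 0.00 (SE 0.18, FDR-adjusted p = 0.997), with an approximate 95% interval of -0.35 to 0.35, and its sign changed with the model and the embryos used.

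*Nr2f2* was 9.05 to 46.0 CPM in ctrl (median 25.8) and 41.0, 18.9, 102, 51.9 and 37.3 CPM in cKO-E A to E. The cKO-E embryos C and D lay above all ctrl embryos and the other 3 within their range. At a log2 fold change of 0.88 (SE 0.37), the gene did not pass (adjusted p = 0.112). It was 0.39 without cKO-E C (adjusted p = 0.513) and 1.13 without cKO-E B (adjusted p = 0.0354). *Nr2f2* is also expressed by interneurons, and 14 markers of ventral telencephalon and interneurons summed to 185 to 247 CPM in cKO-E against 75.1 to 142 in ctrl and 103 to 185 in dKO-E. In cKO-E 10 of the 14 had a count, while *Gsx2*, *Nkx2-1*, *Lhx8* and *Six3* were at 0. *Ebf1*, a gene of striatal neurons rather than of interneurons, made up 103 to 145 CPM of the sums in cKO-E. Without it the other 13 summed to 65.7 to 121 CPM in cKO-E, 9.50 to 86.0 in ctrl and 29.4 to 69.0 in dKO-E. The embryo with the most *Nr2f2*, cKO-E C, had the most of these 13 (121 CPM), but the one with the least, cKO-E B, had the next most (102 CPM). The part of these cells in the level of *Nr2f2* was not tested.

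The zinc finger and DM domain factors were measured at lower depth. *Sp8*, the rostral factor, was 6.02 to 15.4 CPM in ctrl (median 9.92) and 7.32, 7.74, 9.58, 2.36 and 10.5 CPM in cKO-E, where the value of 2.36 in embryo D rests on 2 counts. *Dmrta2* was 22.0 to 34.4 CPM in ctrl (median 27.8) and 19.6, 18.1, 17.7, 30.7 and 30.1 CPM in cKO-E. *Dmrt3* was 9.35 to 20.6 CPM in ctrl (median 14.6) and 10.7, 8.89, 8.47, 10.6 and 16.6 CPM in cKO-E. For *Dmrta2* the cKO-E embryos A to C lay below all ctrl embryos while D and E lay inside their range. Embryos A to C are of batch 1 and D and E of batch 2, and the log2 fold change of *Dmrta2* was -0.49 in batch 1 (adjusted p = 0.0358) and 0.02 in batch 2 (adjusted p = 0.999). For the other two genes the groups overlapped more. The log2 fold changes were -0.25 (SE 0.25) for *Sp8*, -0.29 (SE 0.16) for *Dmrta2* and -0.34 (SE 0.23) for *Dmrt3*, with adjusted p values of 0.548, 0.247 and 0.344. Intervals of -0.74 to 0.23, -0.60 to 0.03 and -0.78 to 0.11 leave room for a fall as large as that of *Lhx2* in *Sp8* and *Dmrt3*.

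Other cell type markers moved in the same comparison. Markers of apical progenitors, the cells in which most of these factors are expressed, were lower for 5 and higher for 1 of 9 genes tested at an FDR of 0.05. Of all genes tested, 9.88% were lower and 7.31% higher at that FDR. *Prom1*, a surface marker of progenitors, had a log2 fold change of -0.64, *Sox9* of -0.42 and *Pax6* of -0.35, whereas *Fabp7*, a fatty acid binding protein of radial glia, had 0.56. The summed level of the 10 markers was 1106 to 1427 CPM in cKO-E against 1346 to 1480.0 in ctrl. The 7 Cajal-Retzius markers, led by *Reln*, summed to 853 to 969 CPM against 544 to 701, and the 9 microglial markers to 29.2 to 37.9 CPM against 6.00 to 16.7. The part of these shifts in the levels of the patterning factors was not tested.

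**Figure D2:**
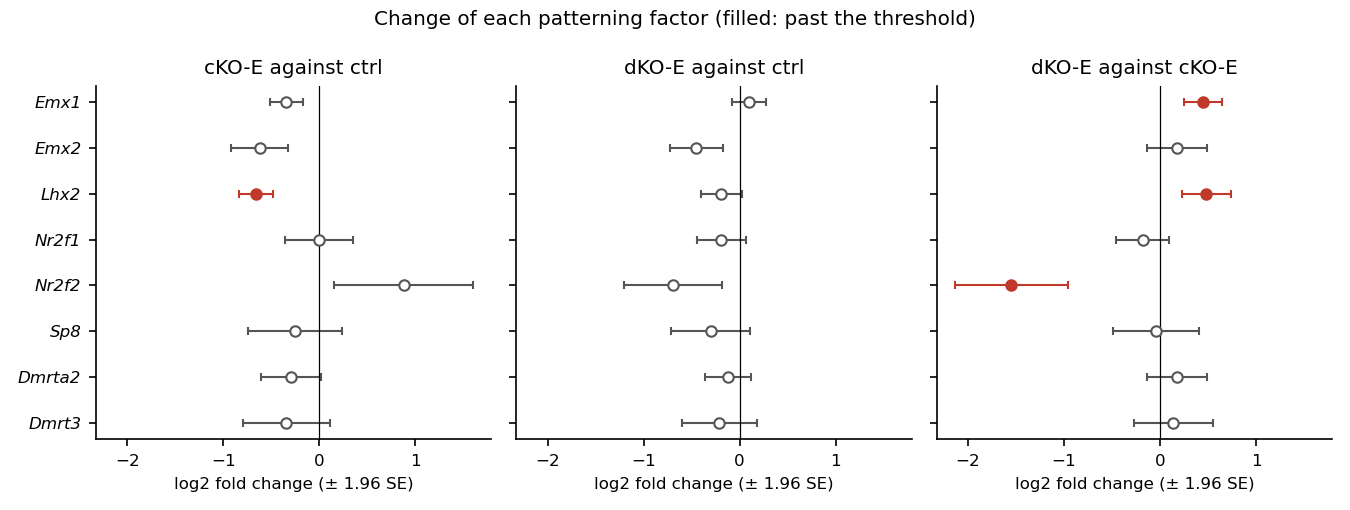
log2 fold change (x axis) of each patterning factor in the 3 comparisons, with bars of 1.96 SE on either side and filled red points for genes past the threshold of that comparison. *Lhx2* passes in cKO-E against ctrl, none of the 8 passes in dKO-E against ctrl, and *Emx1*, *Lhx2* and *Nr2f2* pass in dKO-E against cKO-E.

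The second comparison asks what remained when p53 was deleted together with *Ino80*. In dKO-E none of the 8 factors was called by edgeR's quasi-likelihood test at 0.001, and none was by its likelihood-ratio test or DESeq2, where the quasi-likelihood test called 2.34% of 11381 genes lower and 0.246% higher. These were 266 and 28 genes, or 118 and 80 when scaled by total counts. At an unadjusted p under 0.05 there were 2 of 8, *Emx2* and *Nr2f2*, against 29.6% of all genes. At an FDR of 0.05 there was 1 of 8, *Emx2*, which was lower, against 15.5% of all genes in either direction. The groups were fully separated for 0 of the 8 and for 4.23% of all genes. The median log2 fold change of the 8 was -0.20 against 0.01 over all genes.

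*Emx2* was 30.6 to 53.8 CPM in dKO-E with a median of 31.4. Of the 7 embryos 6 lay below all ctrl embryos, and dKO-E B lay inside their range. The log2 fold change was -0.45 (SE 0.14, FDR-adjusted p = 0.0333), and leaving out 1 embryo moved the adjusted p between 0.00209 and 0.0781. The difference was uneven across the experiment. It was -0.24 in batch 1 (adjusted p = 0.392), -0.78 in batch 2 (adjusted p = 0.0176) and -0.02 with litter as a block (adjusted p = 0.979), where 1 litter alone held both genotypes. In ctrl itself, *Emx2* was 36.6 to 49.9 CPM in batch 1 and 52.4 to 63.8 in batch 2.

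*Lhx2* in dKO-E was 217 to 403 CPM with a median of 238, and 6 of 7 embryos lay below all ctrl embryos while dKO-E B lay above all of them. Over all embryos the log2 fold change was -0.19 (SE 0.11, FDR-adjusted p = 0.278). Without dKO-E B it was -0.32 with an adjusted p of 0.00557. It was 0.06 in batch 1, which holds dKO-E B, and -0.57 in batch 2 (adjusted p = 0.00570), and 0.16 with litter as a block. The direction in dKO-E was therefore not the same in the 2 batches. The ctrl embryos differed by batch as well, with *Lhx2* at 265 to 286 CPM in batch 1 and 298 to 343 in batch 2. The part of this ctrl difference in the fold changes by batch was not tested. The dKO-E embryos of batch 2, F and G, were both of litter 2, which held no ctrl embryo. Those of batch 1 were A, B and C of litter 1 and D of litter 2. For every factor, batch and litter therefore cannot be fully told apart in dKO-E. Batch 3 held 1 dKO-E embryo and no ctrl embryo and gives no value of its own.

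*Emx1* was 88.6 to 142 CPM in dKO-E (median 113), overlapping ctrl on both sides, at a log2 fold change of 0.10 (SE 0.09, FDR-adjusted p = 0.508). *Nr2f2* was 10.2 to 21.7 CPM (median 15.7), within the ctrl range in every embryo, at a log2 fold change of -0.69 (SE 0.26, FDR-adjusted p = 0.0845). Its value was -0.49 in batch 1 (adjusted p = 0.211), -1.16 in batch 2 (adjusted p = 0.240) and -0.12 with litter as a block (adjusted p = 0.895), and leaving out 1 embryo gave adjusted p values of 0.0191 to 0.177. *Nr2f1* was 92.8 to 142 CPM (median 124), *Sp8* 6.16 to 10.5 (median 7.38), *Dmrta2* 21.7 to 31.1 (median 23.4) and *Dmrt3* 9.49 to 18.8 (median 11.3). These 4 genes overlapped ctrl, with log2 fold changes of -0.19, -0.30, -0.12 and -0.21 and adjusted p values of 0.375 to 0.535.

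The third comparison sets the mutants against each other and asks what the added loss of p53 changed. At an FDR of 0.05, 2 of the 8 factors were higher in dKO-E, *Emx1* and *Lhx2*, and 1 was lower, *Nr2f2*, where 5.59% of 11746 genes were higher and 9.42% lower. That split of 657 and 1106 genes became 1064 and 942 with total counts. The groups were fully separated for 1 of the 8, *Lhx2*, and for 6.76% of all genes. No litter gave both mutant genotypes, so litter and genotype cannot be told apart in this comparison. Sex was uneven as well, with 4 females and 1 male in cKO-E and 2 females and 5 males in dKO-E. With sex as a covariate, 1079 genes were called higher and 1369 lower. In the main test, 6 of 9 apical progenitor markers were above 0 and 3 below, with a median log2 fold change of 0.26. All 5 intermediate progenitor markers were above 0 (median 0.18) and all 8 cortical neuron markers tested were below 0 (median -0.32). The median over all genes was 0.02. The part of these shifts in the levels of the patterning factors was not tested.

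*Lhx2* was higher in all 7 dKO-E embryos, at 217 CPM or more, than in all 5 cKO-E embryos, at 216 or less. The log2 fold change was 0.48 (SE 0.13, FDR-adjusted p = 0.0173). It was 0.34 without dKO-E B (adjusted p = 0.00902) and 0.41 without cKO-E A, where the adjusted p was 0.0629. Within batch 1 it was 0.68 (adjusted p = 0.0246) and within batch 2 it was 0.11 (adjusted p = 0.824).

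*Emx1* averaged 115 ± 17.9 CPM (SD, n = 7) in dKO-E against 84.1 ± 11.2 (n = 5) in cKO-E, and 6 of 7 dKO-E embryos lay above all cKO-E embryos. The log2 fold change was 0.45 (SE 0.10, FDR-adjusted p = 0.00536), 0.53 within batch 1 (adjusted p = 0.0188) and 0.30 within batch 2 (adjusted p = 0.508). *Emx2*, by contrast, was 35.3 ± 8.40 against 31.9 ± 6.66 CPM, a log2 difference of 0.18 (SE 0.16, FDR-adjusted p = 0.513) with an interval of -0.13 to 0.49.

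*Nr2f2* was the factor with the largest difference, 15.9 ± 4.10 CPM (n = 7) in dKO-E against 50.1 ± 31.2 (n = 5) in cKO-E. Of the 7 dKO-E embryos 5 lay below all cKO-E embryos, and the other 2, B and C, lay above cKO-E B. The log2 fold change was -1.55 (SE 0.30, FDR-adjusted p = 0.00139), -1.56 within batch 1 (adjusted p = 0.0347), -1.67 within batch 2 (adjusted p = 0.000966) and -1.06 without cKO-E C (adjusted p = 0.00490). All 5 tested genes of the ventral list, *Ebf1* included, were also called lower in the double mutants by this test. Of all genes tested, 9.42% were called lower. The 5 ventral genes included *Dlx1* with a log2 fold change of -1.43 and *Gad2*, which makes GABA, with -0.89. The calls of *Gad1* and *Lhx6* were lost without any 1 of 8 of the 12 embryos. Within batch 2 alone, *Dlx1*, *Gad2*, *Gad1* and *Lhx6* were not called (log2 differences of -1.74 to -0.47, adjusted p values of 0.215 to 0.536). Within batch 1 alone, *Ebf1*, *Lhx6* and *Gad1* were not called (adjusted p values of 0.109 to 0.154). *Nr2f1*, the other COUP-TF gene, had a difference of -0.18 (SE 0.14, FDR-adjusted p = 0.446). It was -0.02 within batch 1 (adjusted p = 0.958), -0.57 within batch 2 (adjusted p = 0.0151) and -0.02 without cKO-E C (adjusted p = 0.974). Lastly, *Sp8*, *Dmrta2* and *Dmrt3* had -0.04, 0.18 and 0.14 with adjusted p values of 0.537 to 0.952.

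Several of the factors share their locus with a noncoding transcript on the opposite strand. *Emx2os* starts inside *Emx2* and runs away from it, with 264 bases of exon in common, and was 70.5 ± 12.8 CPM in ctrl, 41.1 ± 9.87 in the single and 56.1 ± 10.4 in the double mutants. Its log2 fold change was -0.72 (SE 0.15, FDR-adjusted p = 0.00312) in cKO-E and -0.29 (SE 0.13, FDR-adjusted p = 0.122) in dKO-E. Between the mutants it was 0.44 higher in dKO-E (SE 0.14, FDR-adjusted p = 0.0434), a call that *Emx2* did not have and that was lost without any 1 of 9 of the 12 embryos (adjusted p up to 0.134). For *Emx2os* this difference was 0.66 in batch 1 alone (adjusted p = 0.0237) and -0.04 in batch 2 alone (adjusted p = 0.976). The difference between the responses of the 2 transcripts was not tested.

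*B130024G19Rik*, opposite *Nr2f2* with 643 bases of exon in common, was 11.4 ± 7.39 CPM in ctrl, 5.70 ± 1.47 in dKO-E, and 23.6, 8.89, 82.9, 36.6 and 24.7 CPM in cKO-E A to E. As for *Nr2f2*, embryo C was the highest and B the lowest. The log2 fold change was 1.63 (SE 0.48, FDR-adjusted p = 0.0278) in cKO-E and -2.65 (SE 0.41, FDR-adjusted p = 0.000197) between dKO-E and cKO-E, with every dKO-E embryo below every cKO-E embryo. *A830082K12Rik*, opposite *Nr2f1* with 123 bases in common, was 161 ± 27.2, 182 ± 33.7 and 154 ± 17.2 CPM in ctrl, cKO-E and dKO-E and was called in no comparison. *Gm27197* and *Gm13584* inside *Lhx2* and *Dmrta2os* beside *Dmrta2* were below the level needed for a test. How completely the libraries kept strands apart was not tested.

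**Figure D3:**
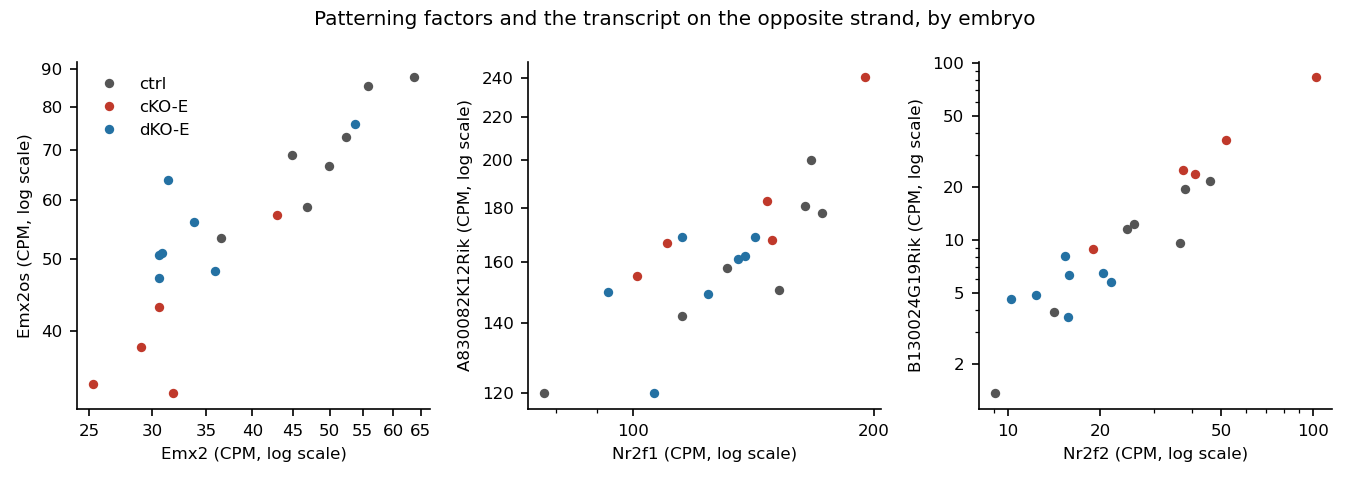
CPM of *Emx2*, *Nr2f1* and *Nr2f2* (x axes, log scale) against the transcript on the opposite strand (y axes, log scale), 1 point per embryo, coloured by genotype. The points of *Nr2f2* and *B130024G19Rik* run from ctrl H at 9.05 and 1.36 CPM to cKO-E C at 102 and 82.9 CPM.

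Across the 19 libraries, in which depth, batch and tissue composition also varied, the genes most like each factor were described by the correlation of log2 CPM, given with the value after genotype means were subtracted. *Emx2* followed *Lhx2* (r = 0.84, and 0.80 after subtraction) and *Dmrt3* (0.81 and 0.79), *Nr2f1* followed *Nr2f2* (0.74 and 0.82), and *Dmrta2* followed *Dmrt3* (0.71 and 0.66). *Emx1* and *Nr2f2* ran opposite (-0.64 and -0.35).

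Among 9288 genes searched, the closest to *Lhx2* were *Epha4* (0.94 and 0.85), *Sox6* (0.93 and 0.81) and *Rgma* (0.92 and 0.78), and the closest to *Emx2* were *Chd7* (0.94 and 0.88), *Dach1* (0.93 and 0.91) and *Ppfibp1* (0.93 and 0.84). For *Emx1* they were *Cntrob* (0.93 and 0.90), *Nr4a2* (0.88 and 0.71) and *Notch2* (0.87 and 0.72). The COUP-TF genes had their opposite-strand transcripts among the 3 closest, *B130024G19Rik* for *Nr2f2* (0.95 and 0.92, ahead of *Gabra2* and *Adgrv1*) and *A830082K12Rik* for *Nr2f1* (0.80 and 0.83, after *Lypd6* and before *Mtif2*). For the least abundant factors the closest were *9530077C05Rik*, *Net1* and *Gpatch4* for *Sp8*, *Dennd1b*, *Vegfc* and *Cbfb* for *Dmrta2*, and *Plekhg1*, *Znrf3* and *Ror2* for *Dmrt3*, with values of 0.75 to 0.87.

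Among other transcription factors that pattern the telencephalon, 26 of 31 listed genes were tested in cKO-E. At 0.001, 1 rose and 2 fell, where 1.06% of all genes tested rose and 2.32% fell. At 0.05 the counts were 3 and 7, against 7.31% and 9.88% of all genes. The median log2 fold change was -0.16, against 0.02 over all genes. *Tcf7l1*, a repressor of WNT targets, fell from 457 to 264 CPM (log2 fold change -0.80, SE 0.10, adjusted p = 4.48e-05) and exceeded that level by 0.73 in dKO-E (adjusted p = 0.000952). Within batch 2 alone, the excess of *Tcf7l1* in dKO-E over cKO-E was 0.23 (adjusted p = 0.393). *Meis2*, a TALE homeodomain gene, fell in cKO-E (-0.41, adjusted p = 0.000229) and had -0.27 in dKO-E (adjusted p = 0.00846), and its call in cKO-E was lost without cKO-E C (adjusted p = 0.00110). *Pbx3*, another TALE gene, rose in cKO-E (0.85, adjusted p = 0.000123), with 0.34 in dKO-E (adjusted p = 0.0419).

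Over all embryos, some of these regulators had the pattern of *Lhx2*, lower in cKO-E and higher again in dKO-E. *Nr2e1* (Tlx), which sets the border between pallium and subpallium, was 86.7, 58.9 and 82.2 CPM in ctrl, cKO-E and dKO-E, *Otx1*, a homeodomain gene of cortical progenitors, was 37.0, 26.4 and 39.3, and *Tcf7l2*, a WNT effector, was 128, 92.8 and 124. None of the 3 passed 0.001 in cKO-E, with adjusted p values of 0.00142, 0.00767 and 0.00247, and all 3 were called between the mutants, at 0.0134, 0.0140 and 0.0381. Within batch 2 alone, the log2 differences between the mutants were 0.05, 0.25 and 0.15, with adjusted p values of 0.959, 0.778 and 0.771. *Meis1*, *Bhlhe22*, *Lmo4*, *Zic2* and *Zbtb20* were called lower in the double than in the single mutants, with log2 differences of -0.70, -0.79, -0.31, -0.62 and -0.25. The calls of *Tcf7l2*, *Lmo4* and *Zbtb20* were lost without any 1 of 8, 7 and 9 of the 12 embryos, and that of *Nr2e1* without cKO-E A (adjusted p = 0.0520). In dKO-E 0 of the 26 tested genes passed 0.001 against ctrl, where 2.34% of all genes were called lower and 0.246% higher.

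The genes of the signalling centres were mostly too low to test. Of 18 genes of FGF signalling 9 were tested in cKO-E. *Etv5*, an ETS factor induced by FGF, rose from 20.5 to 56.6 CPM (log2 fold change 1.45, SE 0.18, adjusted p = 3e-05) and was back at 22.0 in dKO-E, a difference between mutants of -1.37 (adjusted p = 5.62e-06). Its relative *Etv1* had 0.81 in cKO-E (adjusted p = 0.00680) and was called lower in the double mutants (-0.96 between mutants). *Spred2*, an inhibitor of the FGF-RAS pathway, fell in dKO-E (-0.48, adjusted p = 0.000448), a call lost without any 1 of 5 of the 14 embryos (adjusted p up to 0.00192).

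Of 21 WNT and BMP genes of the hem 7 were tested in cKO-E and 0 passed 0.001, with *Rspo3*, an enhancer of WNT signalling, at 39.1, 67.7 and 31.8 CPM in ctrl, cKO-E and dKO-E, and *Lmx1a*, a hem and roof plate gene, at 2.01, 7.98 and 1.84. Both were called lower in the double than the single mutants, by edgeR's adjusted p of 9.91e-05 and 0.00438. The mean of *Lmx1a* in cKO-E rests on embryo E at 22.4 CPM. The other 4 averaged 4.39 CPM, and without E the difference between the mutants was -1.52 (adjusted p = 0.0238) in place of -2.46. The same embryo had 70.5 CPM of *Rspo2*, another enhancer of WNT signalling, where the next had 4.72. Of 6 antihem genes 5 were tested and 0 passed 0.001 against ctrl, while *Nrg1* and *Nrg3*, ligands of ERBB receptors, were called lower in the double mutants than the single mutants (-0.34 and -0.46).

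Genes with graded or area-restricted expression in cortex were tested for 16 of 18. In cKO-E 2 rose at 0.001 and 0 fell, against 1.06% and 2.32% of all genes tested. At 0.05 the counts were 6 and 1, against 7.31% and 9.88%. *Cntnap2*, a neurexin-like adhesion protein, rose from 188 to 310.2 CPM (0.72, SE 0.08, adjusted p = 1.13e-05), and *Rorb*, a nuclear receptor of layer 4 neurons, from 71.3 to 121 (0.75, SE 0.11, adjusted p = 0.000114). *Cdh11* and *Cdh6*, cadherins, and *Efna5*, an ephrin, had 0.58, 0.38 and 0.64 without passing 0.001. In dKO-E 0 of 16 passed 0.001, and 14 of 16 fold changes were below 0. The 8 cortical neuron markers tested in dKO-E were also all below 0 against ctrl, with a median of -0.32. The part of this shift in the graded genes was not tested. Between the mutants 6 of these graded genes were called lower and 0 higher in dKO-E, against 9.42% and 5.59% of all genes tested. The 6 were *Cntnap2* (-0.86), *Cdh11* (-0.71), *Efna5* (-0.78), *Cdh6* (-0.61), *Rorb* (-0.48) and *Id2* (-0.39). The call of *Id2* was lost without any 1 of 3 embryos. The list had a median of 0.14 in the single and -0.23 in the double mutants, against -0.31 and -0.20 for the 8 factors.

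**Figure D4:**
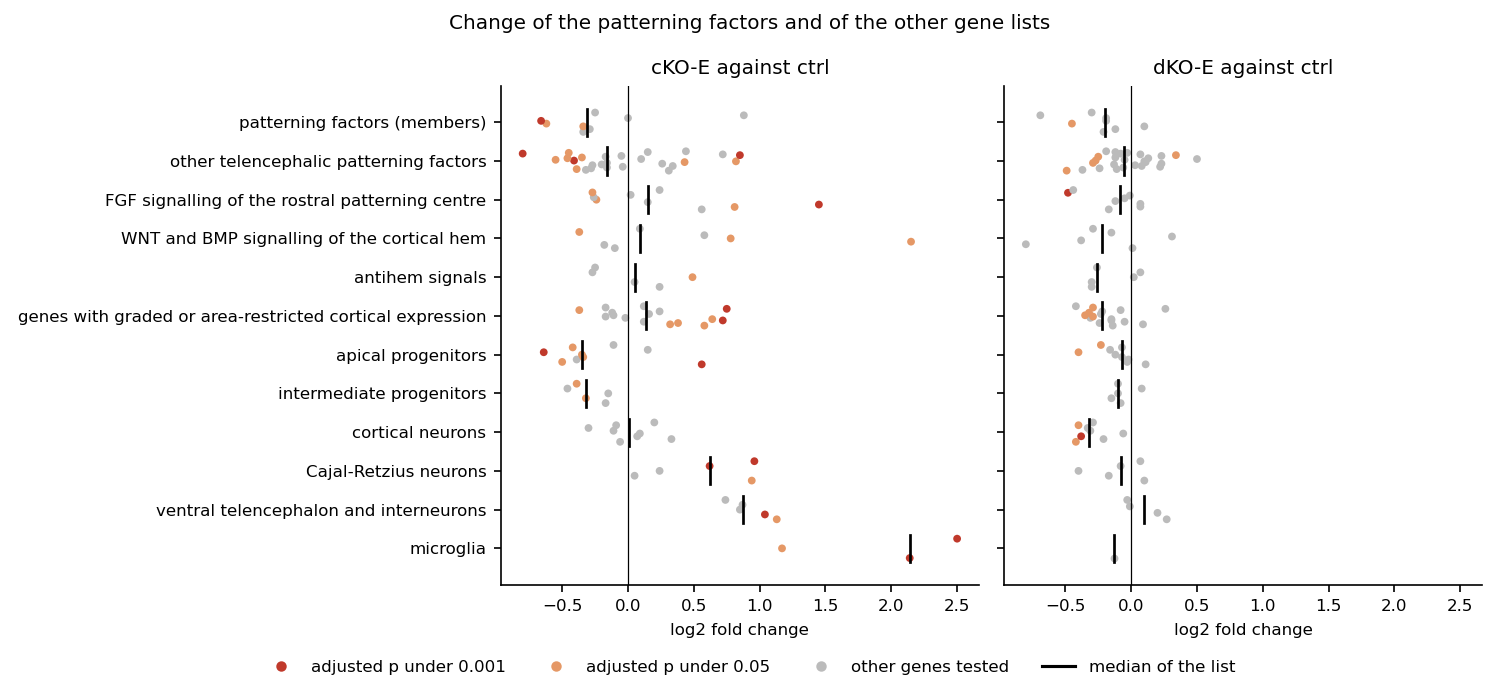
log2 fold change (x axis) against ctrl of the 8 patterning factors and of each other gene list (y axis), 1 point per gene tested, coloured by adjusted p, with the median of each list as a black bar. In cKO-E the medians run from -0.35 for apical progenitor markers to 2.14 for microglial markers, with the 8 factors at -0.31, and in dKO-E the 8 factors are at -0.20.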

How the data were processed

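The authors sequenced ribosome-depleted total RNA of E13.5 cortex by Click-seq, trimmed adapters with cutadapt 1.13, aligned reads to GRCm38 with STAR 2.5.2a, collapsed reads that shared an identifier with UMI-tools 0.5.3 and obtained read counts with HTSeq 0.6.1p1 in intersection-nonempty mode. The deposited files hold the resulting counts of 19 libraries, without normalization. The feature type and strand setting of the counting are not given in the sources used here. Reads given to no single gene, 23.3% to 31.8% of each file, stayed out of library sizes and tests.

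Identifiers were matched to GENCODE M21 (51633 of 51912 found). Each comparison was fitted on its own groups in R 4.3.3 with edgeR 4.0.16 (filterByExpr with a minimum count of 10, TMM factors, quasi-likelihood test, Benjamini-Hochberg adjustment over all genes tested), and the procedure was tested on simulated counts. SE is the size of the log2 fold change over the square root of F, and intervals are 1.96 SE either side. CPM used TMM factors over all 19 libraries. Correlations used a prior count of 2 and genes of at least 10 mean CPM. Annotation and plots used Python 3.11.15, pandas 2.3.3, numpy 2.4.6 and matplotlib 3.10.9.

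Named genes are the 8 factors, *Ino80* and *Trp53*, at most 25 genes of the other patterning lists that passed a threshold (smallest p first), genes overlapping a factor or starting within 10 kb of its start, and the 3 genes most correlated with each factor. The markers of cell types named beside results were chosen after their values were seen. Members and lists were chosen with earlier results of these data known. Separate embryos are the replicates. The main tests treated embryos of 1 litter as independent, and the 7 dKO-E embryos came from 2 litters. All 52 pairs of libraries of 1 genotype differed beyond sampling noise (chi-square per degree of freedom at least 1.42). Alternatives covered the test (likelihood-ratio test, DESeq2 1.42.0), the filter, scaling, batch, sex and litter terms, single batches, a block for the letter in the sample name, the FDR and each embryo left out. Depth limits cover counting error alone.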

Additional observations from a re-analysis of the deposited data

Results flagged for a closer look

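A library of 1 genotype was compared with the others of its genotype for each of the 8 factors, 24 groups in all, and chance alone sets apart about 1 group in 20. The value of *Emx2* in dKO-E B, 53.8 CPM, stood apart from the next highest dKO-E embryo at 35.9 CPM. The value of *Lhx2* in the same embryo, 403 CPM, stood apart from the next at 262 CPM, and that of *Dmrt3*, 18.8 CPM, from the next at 12.1 CPM. All 3 come from 1 library, so they are not independent of each other. In dKO-E, embryo B also had the highest sums of apical progenitor markers (1422 CPM) and of endothelial, mural and erythroid markers (98.5, 89.5 and 109 CPM), and the lowest sum of cortical neuron markers (3743 CPM). The part of these in its *Lhx2* level was not tested. *Dmrt3* in cKO-E E, 16.6 CPM, stood apart from the next cKO-E embryo at 10.7 CPM.

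The effects of the 2 mutants differed by the test of dKO-E against cKO-E for *Emx1* (log2 fold change 0.45), *Lhx2* (0.48) and *Nr2f2* (-1.55), by edgeR's quasi-likelihood test.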

How the results depend on the processing

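Of 626 log2 fold changes of single factors under alternatives, 585 kept their direction and side of the threshold, 4 fell short of it, 4 newly passed and 33 changed sign. In cKO-E against ctrl, the count of factors called was 1 and stayed 1 with each embryo left out, but was 3 at an FDR of 0.05, 2 with the likelihood-ratio test, without a filter or with batch as a covariate, and 0 in batch 2 alone. In dKO-E against ctrl it was 0 and 1 at an FDR of 0.05. Between the mutants it was 3, 2 to 3 with each embryo left out and 0 at an FDR of 0.001. Sign changes in cKO-E against ctrl were *Dmrta2* in batch 2 (0.02) and *Nr2f1*, whose value of 0.00 became 0.01 with the likelihood-ratio test and DESeq2, 0.00 with at least 10 counts in every library, 0.03 with total counts, 0.12 with sex as a covariate, 0.09 with litter as a block, 0.19 in batch 2, and -0.16 to 0.11 with each embryo left out. In dKO-E against ctrl they were *Emx1* in batch 2 (-0.07), *Lhx2* and *Dmrt3* in batch 1 (0.06 and 0.12), and *Lhx2*, *Sp8*, *Dmrta2* and *Dmrt3* with litter as a block (0.16, 0.06, 0.06 and 0.16). Between the mutants they were *Emx2*, *Dmrta2*, *Dmrt3* and *Sp8* in batch 2 (-0.23, -0.49, -0.60 and 0.18) and *Sp8* with total counts (0.01), sex as a covariate (0.05) and the replicate block (0.01). With each embryo left out, *Sp8* ran from -0.13 to 0.08 and *Dmrt3* from -0.06 to 0.36. None of the factors that changed sign was called in the comparison concerned, and the cause was not tested. The letter of the label as a replicate block changed no call of a factor (*Lhx2* in cKO-E -0.61, adjusted p = 3.05e-05). Pairs of embryos of different genotype with the same letter had correlations of -0.52 to 0.27 over 14 pairs (median 0.05). Pairs of the same litter had -0.52 to 0.47 over 11 pairs (median 0.15). Because litter mates ranged as widely, these correlations cannot tell whether the letters mark a shared source. Total counts as the scaling moved the median of all genes in dKO-E against ctrl from 0.01 to 0.10. Leaving out the 3 shallowest libraries (cKO-E D, dKO-E E and dKO-E G), an alternative chosen after seeing the data, left the counts of calls at 1, 0 and 3. Leaving out each embryo for genes other than the 8 factors was likewise chosen after seeing the data. Litter as a block could not be fitted between the mutants, and *Sp8* and *Dmrt3* gave no value where at least 10 counts were required in every library. At the lowest depth, 3 counts are 3.65 CPM, which limits *Sp8* most.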
